A study of Mus musculus with 7 samples.

Results

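The RNAs described here are 9 structural RNAs of the nucleus and cytosol that were counted in small RNA libraries of crude mouse heart mitochondria. They are Rn7sk (the 7SK RNA), Rmrp and Rpph1 (the RNAs of RNase MRP and RNase P), the Y RNAs Rny1 and Rny3, the vault RNA Vaultrc5, the long nuclear RNAs Malat1 and Neat1, and Gm42418, a locus annotated over the ribosomal RNA repeat. They were picked by symbol from the 49584 features listed, and all 9 passed the filter on low counts. Each symbol was carried by 1 feature. None of the 9 is encoded by mitochondrial DNA. Whether their RNA lay inside or outside the mitochondria of the preparation was not tested.

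The libraries came from 4 mice in which Tefm, the gene of the mitochondrial transcription elongation factor, had been removed (knockout, Tefm -/-) and from 3 mice with the gene (control, Tefm +/+). Both groups carried Tefm alleles with a loxP-flanked exon (L/L). In the knockouts cre was driven by the muscle creatine kinase promoter, active in heart and skeletal muscle cells, so other cells of the heart keep the gene in this model. The labels used here state no age, sex or strain. The study compared the groups to find small RNAs of heart mitochondria that differ when Tefm is missing. Its design text counts 4 control mice, and 3 control libraries were analysed here. Each library was taken as 1 animal, and where that does not hold the p-values measure only the spread between libraries.

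Most noncoding RNAs in this set work as scaffolds or catalytic cores of ribonucleoproteins. 7SK holds the elongation kinase P-TEFb in an inactive complex in the nucleus. RNase MRP and RNase P cut precursors of ribosomal and transfer RNA and share most of their protein subunits. Y RNAs bind the Ro60 and La proteins, vault RNAs sit in the large vault particles of the cytosol, MALAT1 gathers in nuclear speckles, and NEAT1 is the scaffold of paraspeckles. A crude mitochondrial pellet also carries fragments of other membranes, ribosomes and nuclei, so such RNAs can be recovered with it. The kit selects short RNA, and a count at a long RNA such as Malat1 is a count of its fragments.

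The 2 Y RNAs are shown because their short sequences are the whole measured item and because their counts were compared within each library. Rny1 lies on chromosome 6 at 47788069 to 47788180 (minus strand) and Rny3 on the same chromosome at 47781624 to 47781725 (plus strand), in GRCm38. The sequences are GENCODE M21 transcripts, 112 and 102 bases long, written as DNA, and capitals mark the runs of at least 8 bases that both share. Both end in 4 T.
Rny1: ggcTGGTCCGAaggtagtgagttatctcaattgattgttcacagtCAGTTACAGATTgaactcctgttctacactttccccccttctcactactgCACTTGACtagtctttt
Rny3: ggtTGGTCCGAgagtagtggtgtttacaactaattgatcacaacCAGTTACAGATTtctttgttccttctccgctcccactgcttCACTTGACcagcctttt

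The catalytic RNAs of RNase MRP and RNase P are shown for the same comparison. Rmrp lies on chromosome 4 at 43492788 to 43493058 (minus strand) and Rpph1 on chromosome 14 at 50807449 to 50807767 (minus strand), with lengths of 271 and 319 bases. Rmrp is printed whole and Rpph1 from base 1 to 300, and capitals mark the 2 shared runs of at least 9 bases. The runs come in the same order but at unlike positions, from bases 183 and 221 in Rmrp and from bases 17 and 246 in Rpph1. How often other RNAs of these lengths share such runs was not tested.
Rmrp: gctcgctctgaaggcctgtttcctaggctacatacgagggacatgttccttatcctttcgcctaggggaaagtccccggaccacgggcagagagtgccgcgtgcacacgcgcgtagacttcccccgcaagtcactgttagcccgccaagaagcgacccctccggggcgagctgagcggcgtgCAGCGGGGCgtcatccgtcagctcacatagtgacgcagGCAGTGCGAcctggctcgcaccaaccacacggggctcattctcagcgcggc
Rpph1: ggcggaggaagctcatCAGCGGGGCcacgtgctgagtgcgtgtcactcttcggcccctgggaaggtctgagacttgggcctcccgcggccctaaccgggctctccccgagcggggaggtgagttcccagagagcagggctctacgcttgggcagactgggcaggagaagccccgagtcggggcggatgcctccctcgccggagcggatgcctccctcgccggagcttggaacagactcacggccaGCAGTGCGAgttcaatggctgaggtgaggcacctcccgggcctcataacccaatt

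Rn7sk is shown because it was the 1 member whose groups did not overlap in normalised count, which was so for 23.9% of all genes tested. It lies on chromosome 9 at 78175303 to 78175633 (minus strand) and is 331 bases long. Bases 1 to 120 are printed, and capitals mark GATC, which is its own reverse complement and occurs at positions 13, 42 and 64 from the 5′ end. In human 7SK this element is part of the hairpin that binds HEXIM1. Of 86 other annotated transcripts of the same length, 61.6% held GATC at least once and 12.8% held 3 or more copies.
Rn7sk: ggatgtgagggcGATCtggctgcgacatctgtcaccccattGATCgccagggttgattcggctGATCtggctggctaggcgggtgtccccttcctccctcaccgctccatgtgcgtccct

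The libraries held between 973835 and 2570739 counts, of which RNAs not encoded by mitochondrial DNA took 11.9% to 35.4% in knockouts and 12.5% to 29.8% in controls. All 8 cardiomyocyte markers were measured in the libraries. Tefm itself had 0, 1, 0 and 2 counts in knockouts 1 to 4 and 0, 2 and 1 counts in controls 1 to 3, so the labels could not be checked from it. The libraries differed in make-up within both groups. The composition ratio, meaning small RNA (microRNA plus snoRNA) counts over those of nuclear protein-coding genes on the log2 scale, was 1.84, 3.11, 0.54 and -2.44 in knockouts 1 to 4 and 2.88, -1.35 and 0.61 in controls 1 to 3. Normalised counts are CPM, that is counts scaled to a common library size after TMM adjustment, whose factors ran from 0.515 to 3.28 in knockouts and from 0.644 to 1.011 in controls.

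Among the 9 RNAs, no member passed the test between knockout and control (edgeR's quasi-likelihood test at an adjusted p under 0.05, by Benjamini and Hochberg). Of the 1505 genes in the fit, 105 were called, which is 6.98%, with 79 (5.25%) higher and 26 (1.73%) lower in knockouts. At an unadjusted p under 0.05 the same test gave 353 genes (23.5%) and none of the members. Fold changes were negative for 5 members and positive for 4, with a median of -0.13 on the log2 scale, beside a median of 0.02 and 49.3% negative over all genes tested. DESeq2 called 191 of 3563 genes (5.36%) and none of the 8 members to which it gave an adjusted p, with Vaultrc5 left without a p.

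**Figure D1:**
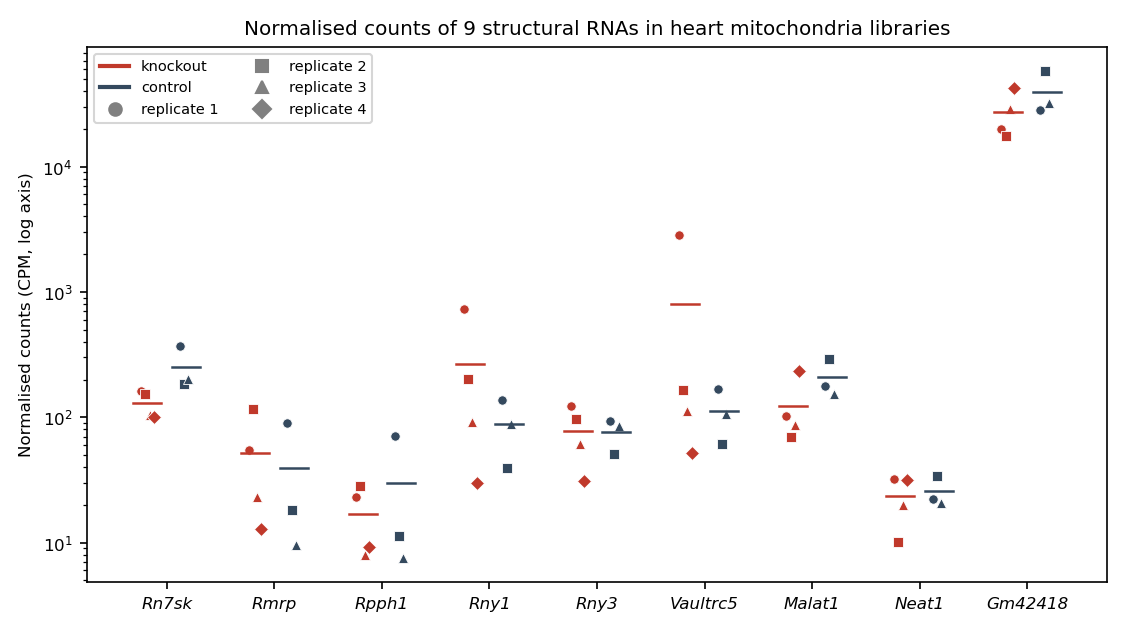
Normalised counts (CPM, log axis) of the 9 RNAs in each library, with knockouts left of controls for each RNA, replicates shown by marker shape and group means by horizontal lines. Vaultrc5 in knockout 1, at 2862 CPM, stands far above every other library, and Rn7sk is the RNA whose knockout points (99.98 to 163 CPM) all lie below its control points (186 to 368 CPM).

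Per kilobase of transcript, Gm42418 had the highest median level and Neat1 the lowest. The median level over the 7 libraries was 15650 CPM per kilobase for Gm42418, followed by 832 for Rny3, 820 for Rny1, 781 for Vaultrc5 and 494 for Rn7sk. The RNase RNAs and long nuclear RNAs were lower, at 85.3 CPM per kilobase for Rmrp, 35.7 for Rpph1, 22.0 for Malat1 and 1.07 for Neat1. The ranges over libraries of Rny3 (303 to 1213), Rny1 (265 to 6518), Vaultrc5 (360 to 20020) and Rn7sk (302 to 1113) overlapped, so the order among these neighbours lies within their spread. The range of Gm42418 (9554 to 31380) overlapped that of Vaultrc5, which at 20020 CPM per kilobase was above Gm42418 (10850) in knockout 1. It did not overlap that of Rny3, nor did those of Malat1 (9.92 to 42.0) and Neat1 (0.483 to 1.64) overlap each other. The range of Rmrp (35.3 to 433) overlapped those of Rn7sk and Rpph1 (23.6 to 224), and the range of Rpph1 overlapped that of Malat1. The order among these neighbours also lies within their spread. The lengths of Malat1 and Neat1, 6983 and 20771 bases, are those of a later annotation version than the one deposited, which places both on the minus strand of chromosome 19.

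The 9 RNAs together took 10.3%, 3.98%, 19.6% and 37.0% of the counts not encoded by mitochondrial DNA in knockouts 1 to 4, against 6.24%, 39.1% and 19.0% in controls 1 to 3. Both groups thus held low and high libraries, and their means were 17.7% ± 14.4 in knockouts (SD, n = 4) and 21.4% ± 16.6 in controls (SD, n = 3). The low and high ends went with the make-up of the library. This is partly built in, since the total behind the share includes the microRNA and snoRNA counts of the composition ratio. Knockout 2 and control 1, the lowest, had the highest composition ratios, and knockout 4 and control 2, the highest, had the lowest ratios. Set against nuclear protein-coding counts plus their own, the shares were closer together, with means of 36.0% ± 5.39 in knockouts and 40.6% ± 6.48 in controls. As a share of all counts the order of the means turned round, with 5.07% ± 5.58 in knockouts and 3.33% ± 2.13 in controls.

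Rn7sk was lower in every knockout than in every control library by normalised count, and the difference did not pass the test. It had 163, 155, 105 and 99.98 CPM in knockouts 1 to 4, from 107 to 317 counts, against 368, 186 and 200 CPM in controls 1 to 3, from 293 to 473 counts. Control 1 was the highest, and the gap between the lowest control and the highest knockout was small beside the spread in either group. Groups without overlap were found for 359 of 1505 genes (23.9%), with the knockouts below for 149 of them (9.9% of those tested). The log2 fold change was -0.94 ± 0.48 (SE, taken as the fold change over the root of the F statistic; edgeR adjusted p = 0.279). The authors' deposited table gives -0.98 with an adjusted p of 0.141.

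The difference in Rn7sk depended on how libraries were set against each other. As a share of counts not encoded by mitochondrial DNA, Rn7sk took 0.0702%, 0.0336%, 0.0707% and 0.0865% in knockouts 1 to 4 (95% Wilson intervals between 0.0287 and 0.0966) and 0.0788%, 0.125% and 0.116% in controls 1 to 3 (0.0711 to 0.137), so knockout 4 lay above control 1. Wilson intervals here cover counting error within 1 library only and leave out the spread between animals. No molecular identifiers are described, so copies of 1 molecule could not be told apart and the intervals may be too narrow. With the composition ratio as a covariate, Rn7sk was called, at -0.92 ± 0.27 (SE; edgeR, adjusted p = 0.0303). That fit called 371 genes, or 24.7% of those tested, 175 of them (11.6% of those tested) lower in knockouts. Leaving out each library in turn in that fit moved Rn7sk's adjusted p between 0.0189 and 0.134. Rn7sk remained called without control 1, control 3 or knockout 1, where 19.8%, 14.8% and 24.4% of all genes were called, and was not called without control 2 or knockouts 2, 3 or 4. Scaled to counts of mitochondrially encoded genes, its log2 fold change was 0.01, where the median gene stood at 1.12.

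The summed level of heart muscle markers was, like that of Rn7sk, lower in every knockout. The 8 cardiomyocyte markers (Myh6, Tnnt2, Tnni3, Actc1, Myl2, Myl3, Ryr2 and Nppa) were all tested, none was called, and 7 had negative fold changes, with a median of -0.77. Their summed level was 1533 to 2226 CPM in knockouts and 2863 to 3927 CPM in controls, without overlap. Groups did not overlap for 23.9% of all single genes tested. No marker was at 0 across all libraries. The summed level of 6 white blood cell markers was 9.91 to 18.9 CPM in knockouts and 24.2 to 34.9 CPM in controls. The counts were mostly those of Cd74 and Lyz2, while Ptprc, the gene of the pan-leukocyte antigen CD45, had 1, 4, 4 and 9 counts in knockouts 1 to 4 and 0, 2 and 2 counts in controls 1 to 3. Of these 6 markers 2 were tested, and Cd74, which encodes the invariant chain of MHC class II, fell (log2 fold change -2.12 ± 0.43, edgeR adjusted p = 0.0342), while Cd52 and S100a8 were at 0 throughout. The part of these markers in the Rn7sk values was not tested. Less of an RNA per cell and fewer cells or less of a compartment in the pellet cannot be told apart in such libraries.

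The protein partners of 7SK were too low to test. Larp7, Mepce, Hexim1, Hexim2, Cdk9, Ccnt1 and Ccnt2 bind or cap 7SK or form P-TEFb, and 0 of the 7 passed the low-count filter. Their summed level was 6.11 to 10.7 CPM in knockouts and 9.06 to 12.9 CPM in controls, with Hexim2 at 0 counts in all 7 libraries.

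Rmrp, the RNA of RNase MRP, overlapped between the groups and was highest where small RNA was most frequent. It had 55.0, 117, 23.1 and 12.9 CPM in knockouts 1 to 4, from 35 to 117 counts, against 90.6, 18.04 and 9.58 CPM in controls 1 to 3, from 14 to 90 counts. Knockout 2 and control 1 were the highest libraries, and these were also the libraries with the highest composition ratios. The fold change between groups, on the log2 scale, was 0.41 ± 0.96 (SE; edgeR, adjusted p = 0.863). It was -0.02 without control 2, -0.10 without control 3, -0.34 without knockout 2 and 1.76 without control 1.

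Rpph1, the RNA of RNase P, was low and was led by a single control. Knockouts 1 to 4 had 22.9, 28.1, 7.93 and 9.15 CPM, against 71.5, 11.4 and 7.53 CPM in controls 1 to 3, and its counts ran from 11 to 71. Control 1 was 2.54 times the next library, and the groups overlapped. Its log2 fold change was -0.83 ± 0.83 (SE; edgeR, adjusted p = 0.599), and without control 1 it was 0.58.

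Within a library, Rmrp was above Rpph1 in all 7, and by more in knockouts on average. The log2 ratio of their counts was 1.24, 2.04, 1.51 and 0.49 in knockouts 1 to 4 and 0.34, 0.66 and 0.33 in controls 1 to 3. Knockout 4 lay below control 2, so the groups overlapped. The means were 1.32 ± 0.65 in knockouts (SD, n = 4) and 0.44 ± 0.18 in controls (SD, n = 3), a difference of 0.88 (two-sided exact permutation test over 35 splits, p = 0.0857, adjusted to 0.214 over the 3 ratios tested). The smallest p these splits allow is 0.0286. Of the 319 bases of Rpph1, 233 are shared with exons of Ccnb1ip1 on the same strand. How reads that overlap both genes were counted is not given in these sources. The part of this overlap in the level of Rpph1 and in the ratio was not tested. Of the 11 protein subunits of RNase MRP and RNase P that were listed, none passed the low-count filter, with summed levels of 4.42 to 9.25 CPM in knockouts and 3.53 to 6.04 CPM in controls.

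**Figure D2:**
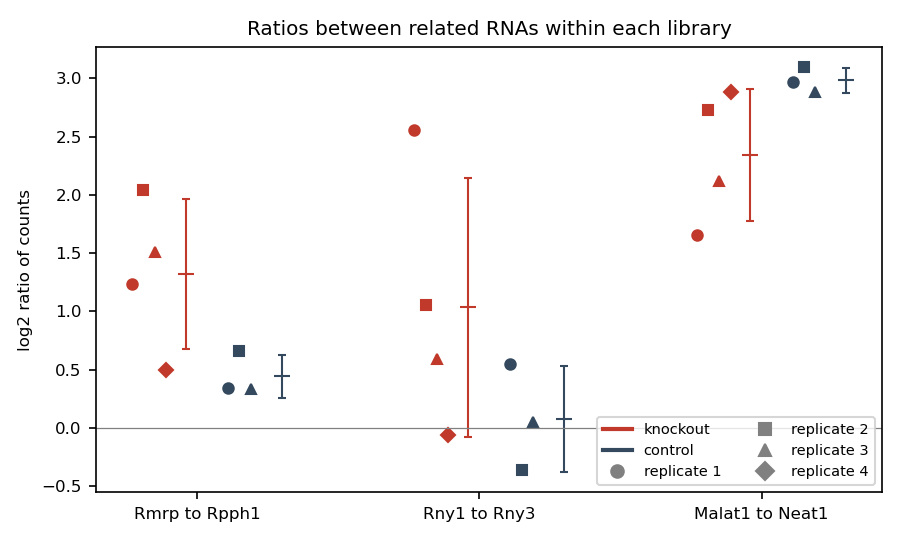
Log2 ratio of counts within each library for Rmrp to Rpph1, Rny1 to Rny3 and Malat1 to Neat1, with knockouts left of controls, a marker per replicate, and the group mean with its SD beside the points. The means of Rmrp to Rpph1 are 1.32 in knockouts and 0.44 in controls, and knockout 4 (0.49) overlaps the controls.

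Rny1 varied 24.6-fold in normalised count between libraries, and knockout 1 was at the top. It had 730, 203, 91.8 and 29.7 CPM in knockouts 1 to 4, from 94 to 478 counts, against 137, 39.2 and 87.6 CPM in controls 1 to 3, from 100 to 136 counts. Knockout 1 was 3.6 times the next library and knockout 4 was below every control. Its log2 fold change was 1.58 ± 1.07 (SE; edgeR, adjusted p = 0.413), and without knockout 1 it was 0.34 (edgeR adjusted p = 0.882).

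Rny3 had nearly even raw counts in all libraries. It was counted 81, 97, 92 and 98 times in knockouts 1 to 4 and 93, 129 and 124 times in controls 1 to 3, although the libraries' totals differed. Normalised, these were 124, 97.4, 60.8 and 30.9 CPM in knockouts and 93.6, 50.6 and 84.8 CPM in controls, which overlapped. For Rny3 the log2 fold change was 0.03 ± 0.54 (SE; edgeR, adjusted p = 0.985).

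Set against Rny3 in the same library, Rny1 was most abundant in knockout 1. The log2 ratio of Rny1 to Rny3 was 2.55, 1.05, 0.59 and -0.06 in knockouts 1 to 4 and 0.55, -0.37 and 0.05 in controls 1 to 3. Of the 4 knockouts, 3 lay above all controls and knockout 4 lay among them. The means were 1.04 ± 1.11 in knockouts (SD, n = 4) and 0.08 ± 0.46 in controls (SD, n = 3; two-sided exact permutation test, p = 0.257). The difference was 0.96 with all libraries and 0.45 without knockout 1. Of the proteins listed for Y RNAs, Trove2 (which encodes Ro60), Ssb (La) and Pnpt1 were listed in the files and none passed the filter, with summed levels of 6.61 to 7.64 CPM in knockouts and 5.88 to 6.84 CPM in controls.

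Vaultrc5, the mouse vault RNA, was high in 1 knockout library and had 155 to 169 counts in each of the other 6. It was counted 1874, 163, 169 and 163 times in knockouts 1 to 4 and 168, 155 and 155 times in controls 1 to 3. Its level was 2862, 164, 112 and 51.4 CPM in knockouts and 169, 60.8 and 106 CPM in controls. Knockout 1 was 16.9 times the next library, and its 1874 counts were 1.23% of the counts not encoded by mitochondrial DNA (95% Wilson interval 1.18 to 1.29), beside 0.0355% to 0.0751% in the other knockouts and 0.0362% to 0.0615% in controls.

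The fold change of Vaultrc5 rested on that library. It was 2.83 ± 1.501 on the log2 scale (SE; edgeR, adjusted p = 0.3004) with all libraries and -0.01 (edgeR adjusted p = 0.999) without knockout 1. The authors' deposited table lists a log2 fold change of 1.59 for Vaultrc5 and no p-value. Against Rny3, in ratios chosen after the values were seen, Vaultrc5 was 23.0 times as frequent in knockout 1, 1.66 to 1.83 times in the other knockouts and 1.201 to 1.802 times in controls. Knockout 1 was also the highest library for Rny1 and Rny3 in CPM, and it had the lowest share of counts outside the mitochondrial genome.

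**Figure D3:**
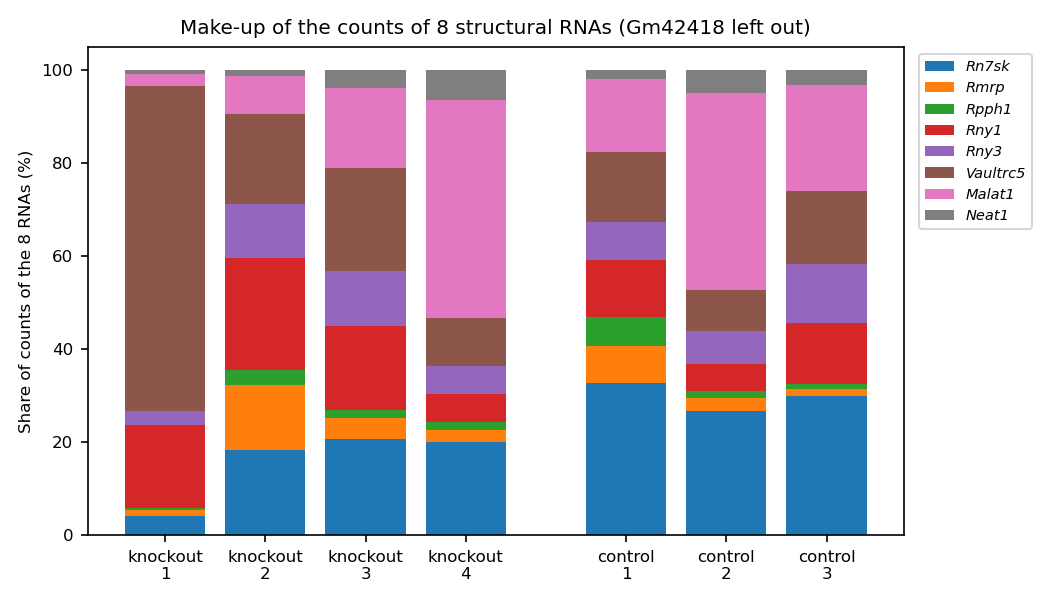
Make-up of the counts of the 8 RNAs other than Gm42418 in each library, as stacked shares in percent, with the 4 knockouts left and the 3 controls right. Vaultrc5 takes 70.0% in knockout 1, and Malat1 takes the largest share in knockout 4 and control 2.

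Of the vault proteins, Parp4 was tested and not called. Parp4 encodes the poly(ADP-ribose) polymerase of the vault particle and had 5, 11, 10 and 36 counts in knockouts 1 to 4 and 6, 11 and 5 counts in controls 1 to 3, and its log2 fold change was 1.06 ± 0.34 (SE; edgeR, adjusted p = 0.104). Mvp, the major vault protein, and Tep1 did not pass the filter. The 3 vault proteins summed to 15.3 to 26.1 CPM in knockouts and 6.16 to 11.1 CPM in controls, which did not overlap. No overlap was found for 23.9% of all single genes tested. The sums rest on few counts, with 2 to 19 per library for Mvp and 1 to 14 for Tep1.

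Malat1 was lower on average in knockouts and the groups overlapped through knockout 4. Its level was 102, 69.3, 87.2 and 235 CPM in knockouts 1 to 4, from 67 to 746 counts, against 177, 293 and 153 CPM in controls 1 to 3, from 176 to 747 counts. Of the 4 knockouts, 3 lay below all controls. The log2 fold change was -0.75 ± 0.57 (SE; edgeR, adjusted p = 0.482), and it became positive with scaling to total, mitochondrial or microRNA counts, under which the median gene also stood between 0.88 and 1.12. With the composition covariate Malat1 stood at -0.86 (edgeR adjusted p = 0.0541), and at between -1.17 and -0.68 when a library was also left out. It was called in that fit without control 3 (adjusted p = 0.0277; 14.8% of all genes called) or without knockout 1 (adjusted p = 0.0405; 24.4% of all genes called).

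Neat1 was counted rarely. It had 21, 10, 30 and 101 counts in knockouts 1 to 4 and 22, 87 and 30 counts in controls 1 to 3, which made 32.1, 10.04, 19.8 and 31.9 CPM in knockouts and 22.1, 34.1 and 20.5 CPM in controls. The groups overlapped throughout. On the log2 scale the fold change was -0.13 ± 0.42 (SE; edgeR, adjusted p = 0.896).

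Malat1 exceeded Neat1 in every library, with a steadier ratio in controls. Their log2 ratio of counts was 1.65, 2.73, 2.12 and 2.88 in knockouts 1 to 4 and 2.97, 3.10 and 2.88 in controls 1 to 3. Knockout 4 and control 3 were about equal and the other knockouts lay below all controls. The means were 2.34 ± 0.57 in knockouts (SD, n = 4) and 2.98 ± 0.11 in controls (SD, n = 3), a difference of -0.64 (two-sided exact permutation test, p = 0.143, adjusted to 0.214 over the 3 ratios).

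Among speckle and paraspeckle proteins, Son and Srrm2, which build nuclear speckles, were the 2 of 7 tested and neither was called. Son stood at 0.11 ± 0.29 on the log2 scale (edgeR, adjusted p = 0.877) and Srrm2 at -0.08 ± 0.30 (edgeR adjusted p = 0.914). Nono, Sfpq and Pspc1, the proteins of the paraspeckle core, did not pass the filter. The 7 proteins summed to 61.2 to 99.4 CPM in knockouts and 68.4 to 87.9 CPM in controls.

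Gm42418 made up nearly all counts of the set. The locus lies on chromosome 17 at 39846958 to 39848788 (plus strand) and held 428929 counts over the 7 libraries. It was counted 13011, 17426, 43371 and 134016 times in knockouts 1 to 4 and 27844, 146502 and 46759 times in controls 1 to 3. That was 82.9% to 98.8% of the members' counts in knockouts and 96.1% to 98.8% in controls.

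Its share of all counts was largest in knockout 4. It took 1.014%, 1.34%, 4.45% and 12.96% of all counts in knockouts 1 to 4 (95% Wilson interval for knockout 4, 12.90 to 13.02) and 1.78%, 5.70% and 2.32% in controls 1 to 3. After normalisation the levels were 19870, 17490, 28650 and 42270 CPM in knockouts and 28020, 57450 and 31990 CPM in controls. The groups overlapped, with means of 27070 ± 11210 CPM in knockouts (SD, n = 4) and 39150 ± 15970 CPM in controls (SD, n = 3). The log2 fold change was -0.53 ± 0.72 (SE; edgeR, adjusted p = 0.723), and it turned positive with scaling to total, mitochondrial or microRNA counts.

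The annotation places ribosomal RNA on the other strand of Gm42418. Of its 1831 bases, 1822 are shared with exons of Rn18s-rs5, an 18S ribosomal RNA entry, and 923 with AY036118, both on the minus strand. Rn18s-rs5 and AY036118 had 0 counts in all 7 libraries. How the authors' counting treated strand and reads with several matches is not given in these sources. Whether these counts come from ribosomal RNA of other repeat copies cannot be told from counts per gene.

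Neighbours and other ribosomal entries, chosen after their values were seen, did not all follow Gm42418. Gm26917, upstream on the same strand at 39843013 to 39846341, had 1246, 6915, 1312 and 954 counts in knockouts 1 to 4 and 4590, 673 and 608 in controls 1 to 3. Knockout 2 and control 1, its highest libraries, were among the 3 with the fewest Gm42418 counts. The ratio of Gm42418 to Gm26917 counts was 10.4, 2.52, 33.0 and 140 in knockouts and 6.07, 218 and 76.8 in controls. The 5.8S entry n-R5-8s1 had 85, 87, 239 and 842 counts in knockouts and 198, 1718 and 446 in controls, with the same libraries high as for Gm42418. Lars2, the gene of mitochondrial leucyl-tRNA synthetase and a listed gene, had 948, 1579, 3806 and 13272 counts in knockouts 1 to 4 and 2019, 26532 and 7165 counts in controls 1 to 3. Its log2 fold change was -1.25 ± 0.77 (SE; edgeR, adjusted p = 0.368).

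**Figure D4:**
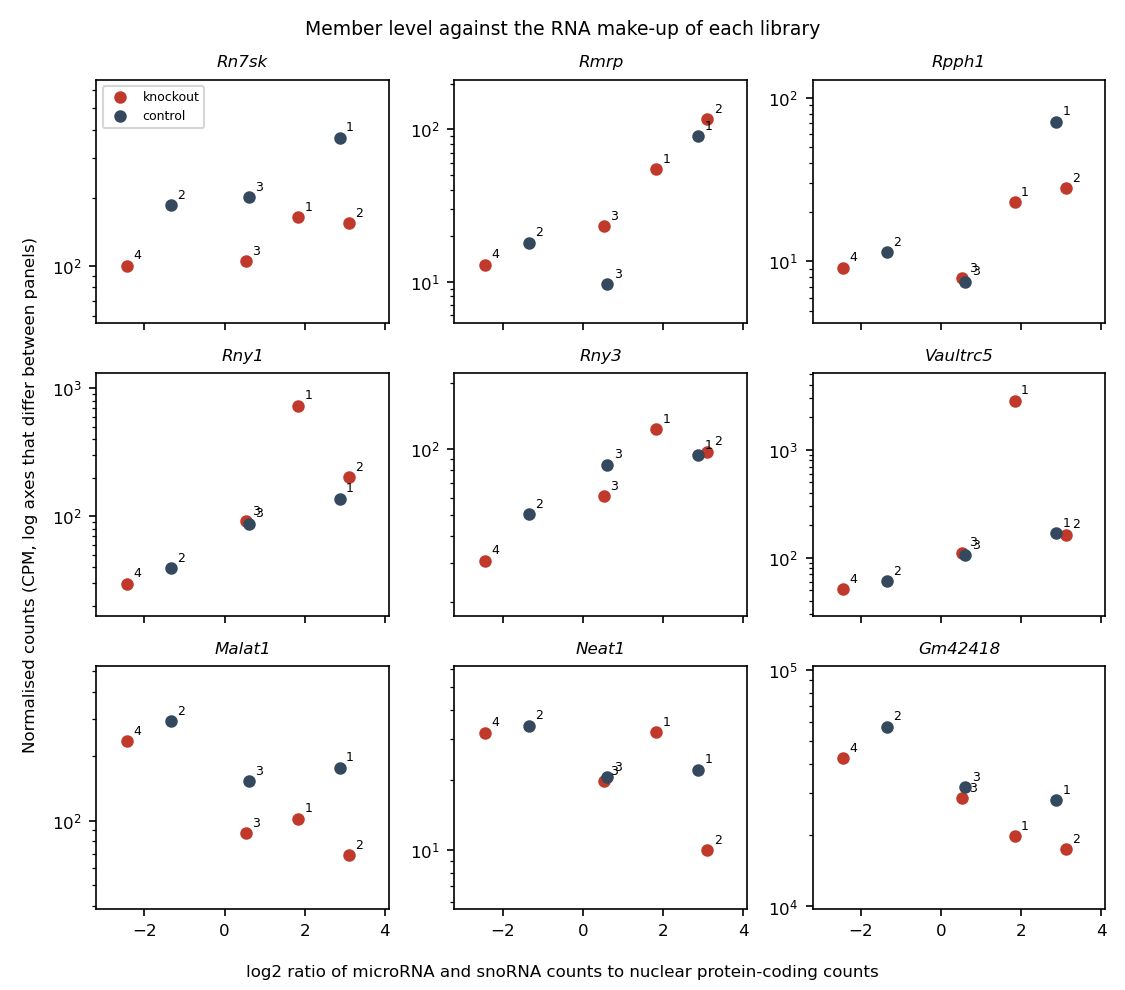
Normalised counts (CPM, log axes that differ between panels) of each RNA against the composition ratio of its library, with knockouts and controls in separate colours and the replicate number beside each point. Rny1 and Rny3 are lowest in knockout 4 and control 2 (composition ratios -2.44 and -1.35), where Malat1 and Gm42418 are highest.

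Levels of the members were also set against each other across libraries, without a test because all levels share the library and its scaling. Over the 7 libraries, Pearson's r of log2 CPM was 0.88 between Rmrp and Rpph1, 0.90 between Rny1 and Rny3 and 0.94 between Rny1 and Vaultrc5, of which the last has knockout 1 as its extreme in both. It was 0.90 between Malat1 and Gm42418 and 0.73 between Malat1 and Neat1. Of the 15 pairs of a short RNA (Rmrp, Rpph1, Rny1, Rny3 or Vaultrc5) with Malat1, Neat1 or Gm42418, a grouping made after the values were seen, 14 had a negative r. These 15 values ran from -0.85 between Rny1 and Gm42418 to 0.085 between Vaultrc5 and Neat1. Rn7sk, left out of that grouping though of similar length to Rpph1, had an r of 0.72 to Rpph1. Its r was 0.21 to Malat1, -0.05 to Neat1 and -0.07 to Gm42418.

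The genes most like each member were picked as the highest r among 1496 other tested genes over the 7 libraries, so high values come with the search. Rmrp was closest to the small nuclear RNA entries Gm25099 (0.97), Gm24265 (0.97) and Rnu12 (0.96), the last being the U12 RNA of the minor spliceosome. Rpph1 was closest to Snord17 (0.96), Gm22513 (0.95) and Rnu11 (0.94), the U11 RNA of the same spliceosome. Rny3 was closest to Mir142 (0.98), Mir335 (0.98) and mt-Th (0.98), and Rny1 to mt-7s (0.96), Mir130b (0.95) and mt-Rnr1 (0.95).

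Fragments of protein-coding RNA led the lists of the long RNAs. Malat1 was closest to Epas1 (0.96), Tmem94 (0.96) and Zfp106 (0.95), Neat1 to Cand2 (0.96), Ncor1 (0.96) and Apbb2 (0.95), and Gm42418 to Tsc22d4 (0.98), Zbtb20 (0.97) and Aqp1 (0.96). Rn7sk was closest to the pseudogene Gm5421 (0.98), Myl2 (0.94), which encodes a ventricular myosin light chain, and mt-Tl1 (0.94). Vaultrc5 had the weakest matches, Tor1aip2 (0.92), Pafah1b1 (0.89) and Cap2 (0.89).

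Other noncoding RNAs of nucleus and cytosol were seen for some entries only. Entries at 0 were common in the whole series, where 15828 of 49584 features were detected at all. Of 32 listed besides Lars2, which encodes a protein, 27 were in the files, 15 of these had 0 counts in every library, 3 were tested and none was called. The entries Rnu1a1, Rnu2-10, Rnu3a, Rnu6 and Terc were among those at 0, as were Rn5s and Rn7s1, while Rn7s2 had 3 counts in all. The tested ones were Rnu11 (log2 fold change -0.93 ± 1.34, edgeR adjusted p = 0.745), Rnu12 (-0.12 ± 0.78, edgeR adjusted p = 0.951) and Rnu73b (0.35 ± 1.33, edgeR adjusted p = 0.914). Most of these RNAs have several gene copies, and a count of 0 at a named copy does not say that the RNA was absent.

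Near copies of the members took no counts of their own where they are few. At 90% identity over at least 40 bases, Rn7sk matched 12 other annotated genes, Rpph1 and Rny1 2 each and Vaultrc5 1, and all of these were listed with 0 counts. Rny3 and Gm42418 matched none, and the match of Rmrp is a second entry of its own locus. The search covered annotated transcripts in the same orientation only. It could not return the opposite-strand entries Rn18s-rs5 and AY036118, which overlap Gm42418, or unannotated copies of the ribosomal repeat. Malat1 matched 1198 genes through 263 of its bases (3.77%) and Neat1 791 through 1012 of its bases (4.87%). Fragments from these stretches could be placed elsewhere, and their share of the counts is not known. By position, Rpph1 shares 233 bases with exons of Ccnb1ip1 on the same strand, which had 0 counts, and Rmrp shares 124 with Ccdc107 on the opposite strand, which had 5.

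**Figure D5:**
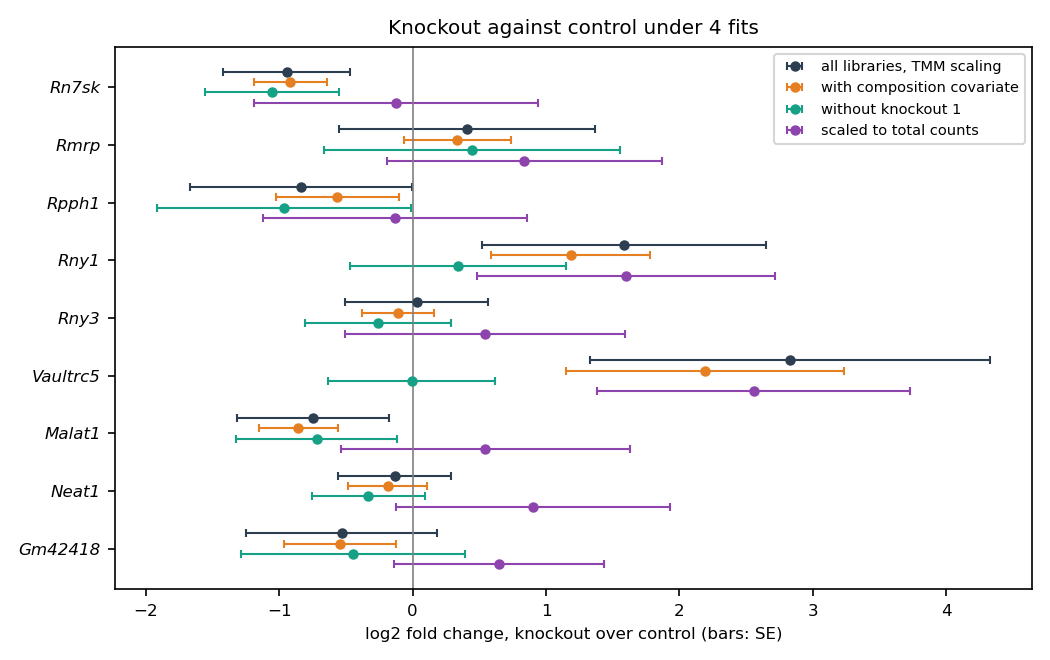
Log2 fold change of knockout over control for each RNA (x axis, bars show the SE) under 4 fits that differ in scaling, covariate or libraries. Vaultrc5 is at 2.83 with all libraries and at -0.01 without knockout 1, and Rn7sk is at -0.92 with the composition covariate, with a narrower bar.

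The summed levels of other cell markers are given for the same libraries. Of 5 endothelial markers 4 were tested, none was called and all 4 fold changes were negative, with a median of -0.90 on the log2 scale. The list summed to 29.1 to 80.7 CPM in knockouts and 76.5 to 143 CPM in controls. All 5 fibroblast markers were tested, and Postn, the gene of periostin, rose (log2 fold change 2.69 ± 0.58, edgeR adjusted p = 0.0366), while the list summed to 194 to 622 CPM in knockouts and 234 to 400 CPM in controls. None of the 5 erythroid markers passed the filter (5.02 to 18.3 CPM in knockouts, 11.4 to 19.2 CPM in controls), and none of the 3 liver genes did (at most 3.06 CPM in knockouts and 0.392 CPM in controls). Their part in the members' values was not tested.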

How the data were processed

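The authors deposited raw counts for every gene, whole numbers whose totals differ between libraries. RNA came from a miRNeasy column and went into a small RNA library kit, per the labels' protocols. The submitters' processing notes name, in no order, featureCounts, bedtools, Bowtie2, DESeq2 1.14.1, R 3.3.2, SAMtools 1.3.1 and cutadapt 1.10, and the build mm10. The authors' deposited comparison table holds log2 fold changes and p-values, per the file headers. No source used here gives the annotation release, the strand setting or the rule for multiple mapping.

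The whole table was fitted with edgeR 4.0.16 (R 4.3.3; TMM, default filter with a minimum count of 10, quasi-likelihood test, two-sided, no covariate), with DESeq2 1.42.0 as an alternative. Ratios used log2(count + 0.5) and exact permutation over libraries (Python 3.11.15, scipy 1.17.1). Sequences, lengths and near copies (BLAST 2.17.0) came from GENCODE M21, whose build is GRCm38. The procedure was tested on simulated data.

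The members and lists were chosen with earlier results of these data known. The named genes were all members, the 3 tested genes most like each by Pearson correlation, and up to 3 tested genes per list with the smallest p. Alternatives were other scalings, filters and covariates, a block for the replicate number, fits without 1 library and, for ratios, a pseudocount of 5. Replicates differed far beyond counting noise (chi-square per degree of freedom of 157 or more).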

Additional observations from a re-analysis of the deposited data

Results flagged for a closer look

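Of 13 values screened for a single library far from the rest of its group, 1 stood out. Vaultrc5 was at 2862 CPM in knockout 1, and the gap to the nearest other knockout was 0.96 of the range of the 4 knockouts, above the critical value of 0.829. For normally distributed values chance flags about 1 in 20 groups, so among 13 screened values a flag can arise by chance. The CPM values were screened without log transformation. The knockouts were at 2862, 164, 112 and 51.4 CPM. On the log2 scale the gap is a smaller part of their range and falls below the critical value, so the flag holds only without that transformation. The controls, as a group of 3, were not screened.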

How the results depend on the processing

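Of the other scalings, filters, tests and covariates tried on all libraries, and of the fits without 1 library, only the composition covariate called a member (1, Rn7sk). Rpph1 was not tested at a minimum count of 30 and Vaultrc5 had no p with DESeq2. Added after the data were seen, that fit with a library left out called 1 without control 1 (19.8% of all genes), 3 without control 3 (Rn7sk, Malat1 and Rpph1; 14.8%), 2 without knockout 1 (24.4%) and 0 otherwise. Calls over all genes were 8 with total-count and with mitochondrial scaling, 0 with microRNA scaling (28 at an unadjusted p under 0.05), 192 with no filter, 3 at a minimum count of 30, 191 with DESeq2, 371 with the covariate, and 0 to 75 with a library left out. Same-numbered libraries did not deviate together (correlations 0.51, -0.78 and 0.31), and the replicate block called 0 genes (252 at an unadjusted p under 0.05) and no member, with Rpph1 at 0.036.

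Total-count, mitochondrial and microRNA scaling gave log2 fold changes of 0.54, 0.77 and 0.57 for Malat1, 0.90, 1.102 and 0.84 for Neat1, and 0.65, 0.88 and 0.51 for Gm42418. These scalings moved the median of all genes to 0.93, 1.12 and 0.88. Other turns of sign were Neat1 at 0.053 with protein-coding scaling, Rn7sk at 0.014 with mitochondrial scaling, Rpph1 at 0.37 with microRNA scaling and at 0.063 with the covariate and without control 1, and Rny3 at -0.10 with no filter, -0.081 at the stricter filter, -0.060 with DESeq2 and -0.11 with the covariate. With a library left out, fold changes ran from -0.34 to 1.76 for Rmrp, -1.37 to 0.58 for Rpph1, -0.33 to 0.43 for Rny3, -0.0083 to 3.40 for Vaultrc5 and -0.45 to 0.18 for Neat1. The difference of the members' summed share was 1.74 percentage points over all counts, 0.314 without Gm42418, and -11.3 to 5.13 with a library left out. The causes were not tested. Counts of 10 to 117 for Neat1, Rmrp and Rpph1 limit their precision.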
